A study of Homo sapiens with 6 samples.

Results

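Gelatinases, transmembrane matrix metalloproteinases (MMPs) and tissue inhibitors of metalloproteinases (TIMPs) were examined in 231-BR and MDA-MB-231 cells. The members were the 10 genes MMP2, MMP9, MMP14, MMP15, MMP16, MMP24, TIMP1, TIMP2, TIMP3 and TIMP4, found by symbol among the 17039 genes of the expression table. All 10 have a row in the table. The largest difference between the lines was in an inhibitor: TIMP3 stood at 113 FPKM in 231-BR cells against 0.380 FPKM in MDA-MB-231 cells. TIMP1 was lower and TIMP2, TIMP4 and MMP15 were higher in 231-BR cells, MMP14 was close to 100.0 FPKM in both lines, and the gelatinases were hardly detected in either.

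MMPs are zinc proteases that cut collagens and other matrix proteins. MMP2 and MMP9, the gelatinases, are secreted and cleave denatured collagen and type IV collagen of basement membranes. MMP14, MMP15, MMP16 and MMP24 span the plasma membrane, and MMP14 converts the proenzyme of MMP2 into the active form with TIMP2 as a bridge between them. The TIMPs are secreted proteins that block the active site of MMPs. TIMP1 is a poor inhibitor of transmembrane MMPs, TIMP2 inhibits them well, TIMP3 stays bound to the matrix and also inhibits ADAM17 and several ADAMTS proteases, and TIMP4 is the inhibitor with the narrowest tissue range.

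MDA-MB-231 is a human triple-negative breast cancer line, and 231-BR is its brain-seeking variant. Each line was sequenced in 3 libraries. Both were grown in DMEM with 10% FBS and 1% penicillin-streptomycin, and the medium of 231-BR cells also held G418 at 200 μg/mL. According to the methods, 231-BR came as a gift from a research laboratory and MDA-MB-231 was bought from ATCC, so that the drug, the source and the selection for brain metastasis cannot be told apart in the comparison. The sources used here do not say whether the replicates were separate cultures, and p-values may therefore measure technical spread only. The label for the cell line counts up from replicate to replicate (the number in it runs from 231 to 233 in both lines), whereas the titles name 2 lines, and the titles were used. Expression was given as FPKM, a read density scaled by transcript length and library size, which allows a rough comparison of levels of different genes. Values after ± are SDs over the n = 3 libraries of a line. It is relative to the other RNA of the library, and in bulk RNA fewer cells that express a gene and less RNA per cell cannot be told apart.

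The libraries were alike within a line. Their log2 values over genes with a mean of at least 1 FPKM correlated at 0.997 to 0.998 within lines and at 0.900 to 0.902 between lines, across genes that are not independent replicates. The files used here hold no read counts, so the depth is unknown. The 6 markers that MDA-MB-231 cells are known to express (VIM, CD44, KRT8, KRT18, AXL and MSN) had means of 176 FPKM or more in both lines. Of the 6 markers taken as low, CDH1 did not exceed 0.03 FPKM, PGR 0.07 FPKM and ESR1 1.08 FPKM in any library. The other 3, which mark luminal cells or HER2, were higher in 231-BR than in MDA-MB-231 cells: FOXA1 with 5.47 ± 0.243 against 0.84 ± 0.105 FPKM, GATA3 with 1.24 ± 0.166 against 0.433 ± 0.10 FPKM and ERBB2 with 9.88 ± 0.316 against 4.95 ± 0.176 FPKM. Of 9 markers of fibroblasts and pericytes, which make MMP2 and TIMPs in tumours, 8 are in the table. Their summed level was 3.82 to 4.52 FPKM in 231-BR and 1.93 to 2.25 FPKM in MDA-MB-231 libraries. In 231-BR cells it came mostly from ACTA2 and RGS5. COL1A1 went the other way, with 0.517 ± 0.029 FPKM in 231-BR and 0.93 ± 0.050 FPKM in MDA-MB-231 cells. PDGFRA had 0.25 ± 0.010 FPKM in 231-BR cells and was listed at 0 in MDA-MB-231 cells. COL1A2 did not exceed 0.01 FPKM, COL3A1 and LUM 0.02 FPKM and PDGFRB 0.06 FPKM. The sums of the 5 leukocyte markers in the table were 80.8 to 84.5 against 62.1 to 64.9 FPKM, nearly all from CD68, while PTPRC did not exceed 0.04 FPKM. The 5 endothelial markers summed to 0.44 to 0.59 against 0.25 to 0.34 FPKM. The 8 glial and neuronal markers summed to 27.3 to 28.6 against 13.8 to 15.2 FPKM, mostly from MBP and SYT1, with GFAP at no more than 0.07 FPKM and AQP4 at no more than 0.01 FPKM. The part of other cell types in the results was not tested.

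The sequences before the start sites of 3 members are shown, because TIMP3 was nearly off in one line, TIMP1 differed in the opposite direction and MMP14 was high in both. They are RefSeq sequences of GRCh38.p14, cut where the first annotated transcript begins, and capitals mark each match to the GC box GGGCGG on either strand, of which the TIMP1 stretch holds 1. The TIMP3 stretch is chr22:32801455-32801700 (plus strand, 246 bases), the TIMP1 stretch chrX:47582186-47582312 (plus strand, 127 bases) and the MMP14 stretch chr14:22836335-22836556 (plus strand, 222 bases).
TIMP3: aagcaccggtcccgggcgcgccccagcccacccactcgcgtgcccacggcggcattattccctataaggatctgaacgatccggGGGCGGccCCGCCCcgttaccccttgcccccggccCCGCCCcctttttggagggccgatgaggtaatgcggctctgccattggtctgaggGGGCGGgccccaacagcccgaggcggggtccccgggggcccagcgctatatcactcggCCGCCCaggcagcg
TIMP1: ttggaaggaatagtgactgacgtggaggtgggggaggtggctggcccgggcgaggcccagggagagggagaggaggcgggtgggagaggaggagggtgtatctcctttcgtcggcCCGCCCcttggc
MMP14: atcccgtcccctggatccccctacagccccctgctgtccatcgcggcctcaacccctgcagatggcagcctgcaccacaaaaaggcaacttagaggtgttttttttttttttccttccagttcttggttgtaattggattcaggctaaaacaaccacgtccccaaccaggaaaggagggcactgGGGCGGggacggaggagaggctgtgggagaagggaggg

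In the 250 bases before the RefSeq start, TIMP3 has 26 CpG dinucleotides and 5 GC boxes, TIMP1 has 12 and 2, MMP14 has 7 and 1, and TIMP4 has 11 and 1. The windows of MMP15 and MMP24 hold 31 and 25 CpGs. The median of the 35116 windows of the table was 11 CpGs, and 42.6% of them hold at least 1 GC box. The count of TIMP3 was above that of 80.4% of the windows. CCAAT on either strand, present in 32.0% of all windows, occurs once in the windows of TIMP3, TIMP4, MMP14 and MMP15. TGANTCA, the palindromic AP-1 motif found in 6.57% of windows, and TATAAA on either strand, found in 10.7%, occur in none of the 6 windows of members that were searched. These matches describe the letters only.

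**Figure D1:**
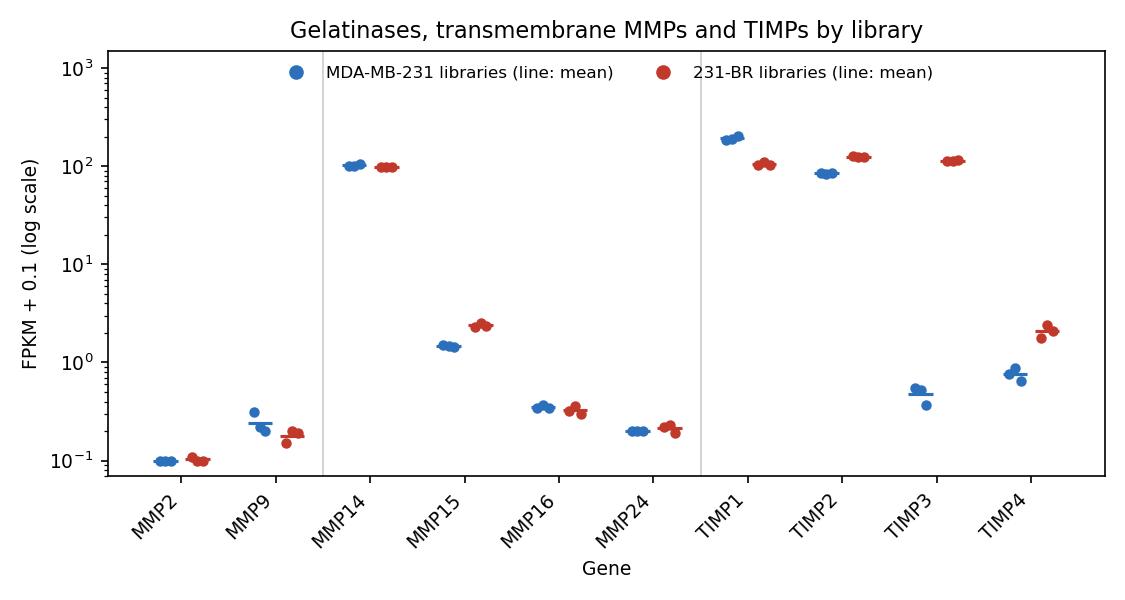
FPKM plus 0.1, on a log scale, of the 10 genes in each library, with blue points for MDA-MB-231, red points for 231-BR and a short line at the mean of 3 libraries. MMP14, TIMP1 and TIMP2 lie between 83.3 and 205 FPKM in both lines, TIMP3 does so in 231-BR libraries only, and MMP2, MMP9, MMP16 and MMP24 stay below 0.3 FPKM.

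For the comparison of the lines, log2(FPKM + 0.1) was fitted for the 13465 genes with a mean of at least 0.1 FPKM, and the moderated test of limma was adjusted by the Benjamini-Hochberg method over all of them. A positive log2 fold change means a higher level in 231-BR cells, and the scale draws the changes of low genes toward 0. Of the 10 members, 9 were tested and MMP2 was too low. Of the 9, 5 passed at an adjusted p under 0.05, with 4 higher (MMP15, TIMP2, TIMP3 and TIMP4) and 1 lower (TIMP1) in 231-BR cells. Over all genes tested 77.3% passed, 44.4% as higher and 32.9% as lower, so the share of members that passed was not above the background. For 6 of the 9 all 231-BR libraries lay on one side of all MDA-MB-231 libraries, MMP14 being the one that did not pass, against 78.4% of all genes tested (44.9% with 231-BR higher and 33.5% with it lower). The median log2 fold change was 0.09 for the 9 members and 0.08 for all genes tested. The DEG criteria of the study are an absolute log2 fold change over 1, an adjusted p under 0.05 and at least 1 FPKM, and its text does not say in which line. With 1 FPKM asked of either line, TIMP3 and TIMP4 met them, as did 11.0% of the genes tested. With 1 FPKM asked of both lines, no member met them, against 6.45% of the genes tested. In numbers, 1476 genes met them with either line and 868 with both. The total of DEGs in the study is close to the count with both lines. The study's list of the most up-regulated DEGs holds MMP1 but not TIMP3. The log2 fold change was 5.51 for MMP1 and 7.90 for TIMP3. The reading with both lines is thus nearer to the study, and under it TIMP3 and TIMP4 are not DEGs.

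TIMP3, the matrix-bound inhibitor, carried the largest change. The 231-BR libraries held 113.06, 111.52 and 114.23 FPKM of it, and the MDA-MB-231 libraries 0.45, 0.42 and 0.27 FPKM. Every 231-BR library was far above every MDA-MB-231 library, and the spread within each line was small beside the gap. The means of 113 ± 1.36 and 0.380 ± 0.096 FPKM differ 297-fold. On the log2 scale the change was 7.90 (SE 0.123, limma adjusted p = 1.8e-11), and 4 of the 13465 genes tested, TIMP3 included, had a change of this size or more in either direction. By mean level TIMP3 ranked at place 656 of the 17039 genes in 231-BR cells and at place 11814 in MDA-MB-231 cells. The value in MDA-MB-231 cells is low enough for the pseudocount to matter, and the log2 fold change was 6.37 with a pseudocount of 1 and 8.21 with 0.01.

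TIMP1 moved the other way. The 231-BR libraries held 103.25, 109.06 and 103.23 FPKM and the MDA-MB-231 libraries 186.74, 187.47 and 205.27 FPKM. The lines did not overlap, and MDA-MB-231 replicate 3 was the highest. The log2 fold change was -0.88 (SE 0.039, limma adjusted p = 1.6e-08), from 193 ± 10.5 FPKM in MDA-MB-231 to 105 ± 3.36 FPKM in 231-BR cells. Of all genes tested, 5.58% had a log2 fold change as low or lower. Without MDA-MB-231 replicate 3 the change was -0.83.

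TIMP2, the inhibitor that also takes part in the activation of MMP2, rose. Its level was 125.7, 123.51 and 123.66 FPKM in 231-BR and 85.24, 83.3 and 84.61 FPKM in MDA-MB-231 libraries. All 231-BR libraries were above all MDA-MB-231 libraries, and the gap between the lines was far wider than the spread within either. The means were 124 ± 1.22 and 84.4 ± 0.990 FPKM, a log2 fold change of 0.56 (SE 0.022, limma adjusted p = 7.4e-09). Of all genes tested, 22.3% had a log2 fold change as high or higher.

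TIMP4 was the least expressed of the inhibitors in 231-BR cells. It had 1.68, 2.32 and 2.01 FPKM in the 231-BR libraries against 0.67, 0.78 and 0.54 FPKM in the MDA-MB-231 libraries, with no overlap. The log2 fold change was 1.46 (SE 0.148, limma adjusted p = 7.5e-06), and the means of 2.0 ± 0.320 and 0.663 ± 0.120 FPKM differ 3.02-fold. With a pseudocount of 1 the log2 fold change was 0.85.

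MMP14 (membrane type 1 MMP), the only member protease above 3 FPKM, had 98.49, 98.01 and 97.3 FPKM in the 231-BR libraries. The MDA-MB-231 libraries had 100.12, 100.53 and 106.01 FPKM. All 231-BR libraries were lower, by little, and the widest step within MDA-MB-231 cells (from 100.53 to 106.01) was larger than the gap between the lines. The log2 fold change was -0.06 with a 95% interval from -0.12 to -0.00099, an unadjusted p of 0.047 and an adjusted p of 0.060 from limma. The call depended on the scaling and on 1 library. After median-of-ratios scaling of the libraries the log2 fold change was -0.14 with a limma adjusted p of 0.00081. Quantile normalization gave -0.02 with a limma adjusted p of 0.48. Without MDA-MB-231 replicate 1 the change was -0.08 with a limma adjusted p of 0.036. The FPKM of all genes summed to 465020 to 472010 in 231-BR and 486940 to 496420 in MDA-MB-231 libraries. The part of these unequal sums in so small a change was not tested. By mean level MMP14 ranked at place 776 in 231-BR and 763 in MDA-MB-231 cells among all genes.

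MMP15 (membrane type 2 MMP) was far lower and rose. The 231-BR libraries held 2.22, 2.45 and 2.26 FPKM, against 1.41, 1.37 and 1.35 FPKM in MDA-MB-231 cells. The lines did not overlap, and the log2 fold change was 0.71 (SE 0.080, limma adjusted p = 1.7e-05). After quantile normalization it was 0.33 and still past the test.

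MMP16 and MMP24, the transmembrane enzymes best known from neural tissue, were expressed at low levels. MMP16 had 0.20 to 0.26 FPKM in 231-BR and 0.24 to 0.27 FPKM in MDA-MB-231 libraries. MMP24 had 0.09 to 0.13 FPKM in 231-BR libraries and 0.10 FPKM in each MDA-MB-231 library. The lines overlapped for both genes, and the intervals of their log2 fold changes were wide: -0.46 to 0.25 for MMP16 (adjusted p = 0.57 from limma) and -0.33 to 0.51 for MMP24 (adjusted p = 0.68 from limma). Values with 2 decimals move in steps of 0.01 FPKM, which is coarse at these levels. After quantile normalization MMP16 was called lower (-0.45, adjusted p = 0.025) and the direction of MMP24 turned (-0.27, adjusted p = 0.22).

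The gelatinases were at the floor. MMP2 was listed at 0.01 FPKM in 231-BR replicate 1 and at 0 in the other 5 libraries, and an exact permutation test gave p = 1. MMP9 had 0.05, 0.10 and 0.09 FPKM in 231-BR and 0.21, 0.12 and 0.10 FPKM in MDA-MB-231 libraries. The lines overlapped, and MDA-MB-231 replicate 1 stood highest. The mean over the 6 libraries was 0.112 FPKM, just inside the filter, which the gene passed through its level in MDA-MB-231 cells. Its log2 fold change was -0.42 with a 95% interval from -0.94 to 0.10 (adjusted p = 0.13 from limma), and after quantile normalization -0.77 (adjusted p = 0.014). Without MDA-MB-231 replicate 1 the gene fell below the filter. MMP17 and MMP25, the membrane MMPs held by a GPI anchor, are no members and were also below it. MMP17 had 0, 0 and 0.02 FPKM in 231-BR and 0.22, 0.11 and 0.22 FPKM in MDA-MB-231 libraries, with an exact 2-sided permutation p of 0.1, the smallest that 3 libraries against 3 allow. MMP25 had 0.03 to 0.09 FPKM in 231-BR and 0.07 to 0.11 FPKM in MDA-MB-231 libraries, which overlapped.

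**Figure D2:**
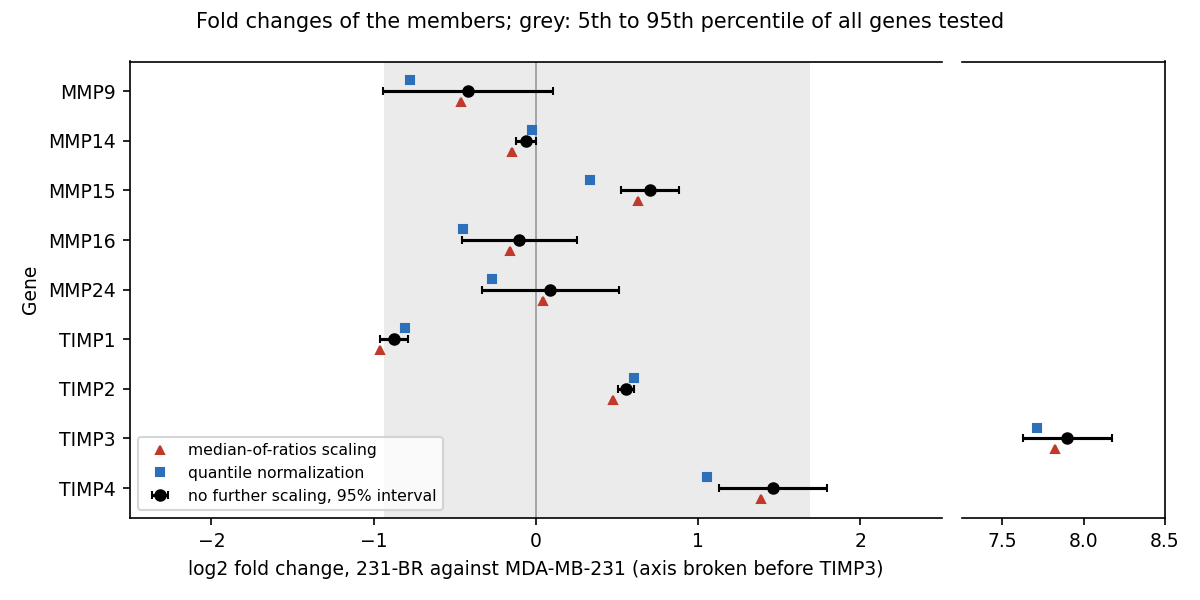
Log2 fold changes of 231-BR against MDA-MB-231 for the 9 members tested (black points, 95% intervals from limma), with the values after median-of-ratios scaling (red triangles) and quantile normalization (blue squares), on an axis broken before TIMP3. The grey band holds all genes tested from the 5th percentile (-0.93) to the 95th (1.69), and TIMP3 lies outside it at 7.90.

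Since FPKM is scaled by length, the members can be ordered by level within a line. In 231-BR cells TIMP2, TIMP3, TIMP1 and MMP14 followed each other from 124 to 97.9 FPKM with no overlap between neighbours in that order. MMP15 and TIMP4 came next at about 2 FPKM and overlapped, and MMP16, MMP24, MMP9 and MMP2 ended the order, with MMP24 and MMP9 overlapping. In MDA-MB-231 cells TIMP1 led at 193 FPKM, followed by MMP14 at 102 and TIMP2 at 84.4 FPKM. MMP15, TIMP4, TIMP3 and MMP16 came after them, where TIMP3 and MMP16 met at 0.27 FPKM. MMP14 thus lay above TIMP2 in MDA-MB-231 cells and below it in 231-BR cells. Biases of FPKM that differ from gene to gene were not assessed, so the order of genes with close levels is uncertain.

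The sum of the inhibitors and the share of each differed between the lines. The summed TIMP level of the 231-BR libraries was 343.69, 346.41 and 343.13 FPKM, that of the MDA-MB-231 libraries 273.1, 271.97 and 290.69 FPKM, and the ratio of the means was 1.24. TIMP1 made up 69.3% ± 1.17 of the sum in MDA-MB-231 cells and 30.5% ± 0.820 in 231-BR cells. TIMP2 held 30.3% ± 1.09 and 36.1% ± 0.462, TIMP3 0.137% ± 0.039 and 32.8% ± 0.556. In 231-BR cells 3 inhibitors thus had similar shares, where MDA-MB-231 cells had mainly TIMP1. The summed level of the 4 transmembrane MMPs was 99.9 to 101 FPKM in 231-BR and 102 to 108 FPKM in MDA-MB-231 libraries, and MMP14 held 97.4% and 98.3% of it on average.

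Set against MMP14 in the same library, TIMP2 had 1.27 ± 0.0082 times its FPKM in 231-BR and 0.826 ± 0.027 times in MDA-MB-231 cells. TIMP1 had 1.07 ± 0.034 and 1.89 ± 0.041 times, and TIMP3 1.15 ± 0.019 times in 231-BR and 0.0037 ± 0.0010 times in MDA-MB-231 cells. For all 4 TIMPs to the 6 member MMPs, the ratio was 3.40, 3.43 and 3.43 in 231-BR replicates 1 to 3. In those of MDA-MB-231 it was 2.68, 2.66 and 2.70. No library of one line reached the ratios of the other. These are ratios of RNA with the same limit on comparing genes, given as a description without a test. They leave out MMPs that are no members. Among those, MMP1 had 1962 ± 37.0 FPKM in 231-BR and 42.98 ± 0.722 FPKM in MDA-MB-231 cells. The ratio of TIMPs to member MMPs therefore does not describe the balance of TIMPs and all MMPs.

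**Figure D3:**
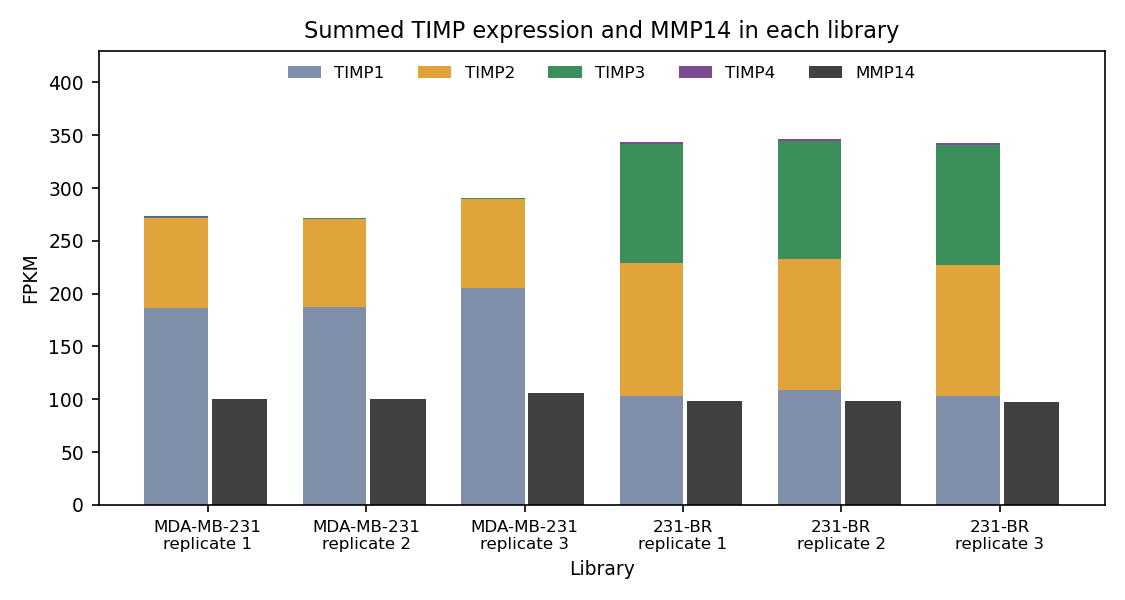
FPKM of the 4 TIMPs stacked to their sum (left bar) and of MMP14 (right bar) in each of the 6 libraries, from 0. The stack reaches 272 to 291 FPKM in MDA-MB-231 and 343 to 346 FPKM in 231-BR libraries, with TIMP3 visible in 231-BR libraries only, while MMP14 stays between 97.3 and 106 FPKM.

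The positions of the members were taken from GENCODE release 29, on GRCh38, the assembly whose patch release GRCh38.p12 the submitters' processing notes name. TIMP3 covers positions 32801701 to 32863043 of chromosome 22 (plus strand), TIMP1 47582313 to 47586789 of chromosome X (plus strand), TIMP4 12153051 to 12159351 of chromosome 3 (minus strand) and TIMP2 78852977 to 78925387 of chromosome 17 (minus strand). MMP14 covers 22836557 to 22849027 of chromosome 14, MMP15 58025566 to 58046901 and MMP2 55389700 to 55506691 of chromosome 16, MMP9 46008908 to 46016561 and MMP24 35226654 to 35277000 of chromosome 20, all on the plus strand, and MMP16 88032009 to 88328025 of chromosome 8 (minus strand). TIMP1, TIMP3 and TIMP4 lie inside genes of the synapsins, proteins of synaptic vesicles, on the opposite strand.

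The host genes had values of their own. TIMP3 shares no exon base with SYN3, which had 25.0 ± 0.896 FPKM in 231-BR and 17.2 ± 0.924 FPKM in MDA-MB-231 cells, a log2 fold change of 0.54 (adjusted p = 1.7e-06 from limma). SYN3 was thus expressed in MDA-MB-231 libraries in which TIMP3 was nearly absent. TIMP1 shares no exon base with SYN1, which did not exceed 0.04 FPKM. TIMP4 shares 170 exon bases with SYN2, which had 0.113 ± 0.021 FPKM in 231-BR and 0.0033 ± 0.0058 FPKM in MDA-MB-231 cells. The library protocol names no step that keeps the strand, and reads in shared bases could then be given to either gene. MMP24 shares 799 exon bases with MMP24OS, which had 23.6 ± 1.04 and 31.7 ± 1.46 FPKM, far above MMP24, so the value of MMP24 is uncertain. MMP2, MMP9, MMP16 and TIMP2 share exon bases with other annotated genes as well, 198 of them between TIMP2 and CEP295NL, which had no more than 0.15 FPKM.

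The genes around the members were described in the same way. Over the 40 nearest genes with at least 1 FPKM, 20 on either side, the median change (log2) was -0.18 for TIMP3, -0.23 for TIMP1, 0.0087 for TIMP2 and -0.05 for TIMP4. Of the neighbours of TIMP3, 8 passed the test as higher and 23 as lower in 231-BR cells. Of those of TIMP1, 5 were higher and 25 lower. Among all placed genes at this level 45.3% were higher and 35.4% lower, so the neighbours of both TIMP1, which fell, and TIMP3, which rose, held more lower genes than that share. Skews were not particular to them. The neighbours of MMP9 (8 higher, 23 lower) and MMP24 (8 higher, 25 lower) also held more lower genes. Those of MMP14 (29 higher, 3 lower) and MMP16 (24 higher, 3 lower) held mostly higher ones. SSX1, 4 places after TIMP1 among the expressed genes and named after its values were seen, had a log2 fold change of 7.58. CDH11, 9 places after MMP15 and also named after its values were seen, had 9.05. The nearest expressed gene after TIMP4 in chromosome order was PPARG, a nuclear receptor of fat cells, with a log2 fold change of 2.60, and TAMM41 on the other side had 0.46. Beside TIMP2 lay LGALS3BP with 1.75 and USP36 with 0.015. For MMP14 and MMP15 the medians were 0.27 and 0.11.

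**Figure D4:**
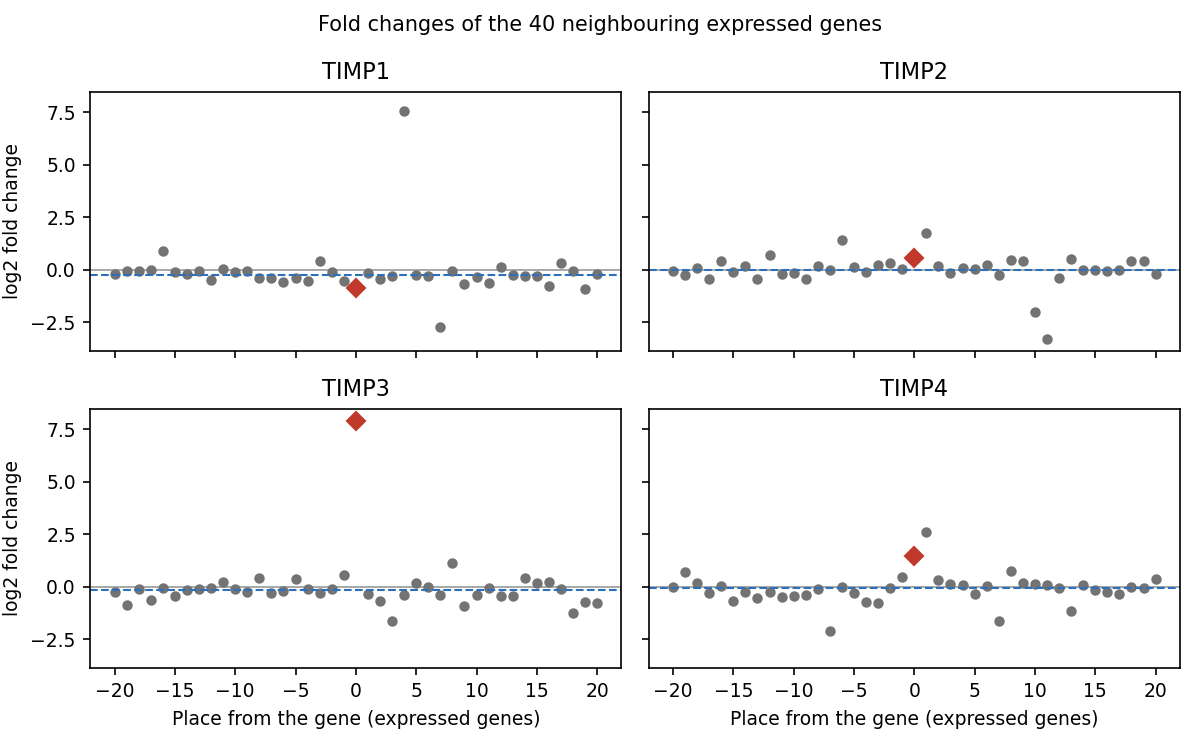
Log2 fold changes of the 40 neighbouring expressed genes (grey points) around each TIMP (red diamond), by place in chromosome order, with a dashed line at the median of the neighbours. The medians lie between -0.23 and 0.0087, TIMP3 stands at 7.90, and the high grey point beside TIMP1 is SSX1 at 7.58.

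Genes with log2 values near those of TIMP3 over the 6 libraries, by Euclidean distance, were TCEAL8, EREG, CD96 and MAGEA6, at distances from 1.62 to 3.92. TCEAL8 had 62.4 ± 1.08 FPKM in 231-BR and 0.34 ± 0.10 FPKM in MDA-MB-231 cells. EREG, a ligand of EGFR, had 32.2 ± 0.289 and 0.307 ± 0.031 FPKM. With 2 lines, such a distance is set by the level in each.

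The genes that work with the members were described by lists. Of 10 genes for the activation and surface docking of MMPs, 2 were higher, 6 lower and 2 not past the test, with a median log2 fold change of -0.48. Over all genes tested 77.3% passed, 44.4% as higher and 32.9% as lower, so the number of calls was near the background. FURIN, the convertase that removes the propeptide of transmembrane MMPs, fell from 22.6 ± 0.165 to 7.21 ± 0.204 FPKM, a log2 fold change of -1.63 (adjusted p = 1.6e-10 from limma). PCSK5, a convertase of the same family, rose from 0.583 ± 0.075 to 2.63 ± 0.110 FPKM (limma adjusted p = 5.6e-08). FURIN stayed the more abundant of the pair in 231-BR cells. PCSK7, named after its values were seen, had means of 9.55 and 9.14 FPKM and did not pass the test. ITGAV, the integrin alpha v chain, fell with a log2 fold change of -1.25, and CAV1, the coat protein of caveolae, rose with 1.09 to 342 ± 1.42 FPKM.

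Of 10 other inhibitors and clearance genes in the table, 9 were tested, and 7 were higher, none lower and 2 not past the test by limma. Among all genes tested 44.4% were higher and 32.9% lower. SPOCK3 and THBS2, among the 7, passed the filter only through 231-BR cells, where they are high, so that their direction was fixed by the filter, and 5 of the other 7 tested were higher. SPOCK1, the proteoglycan testican-1, rose from 0.20 ± 0.035 to 2.53 ± 0.139 FPKM, and LRP1, the endocytic receptor that takes up MMPs and TIMPs, from 0.273 ± 0.038 to 1.61 ± 0.035 FPKM. RECK, a membrane-anchored inhibitor of MMP14 and the gelatinases that was named after its values were seen, had a log2 fold change of 0.47 (adjusted p = 0.00052 from limma). THBS1 and SPOCK2 did not pass, with -0.02 and -0.26. The count without a lower gene did not hold under another scaling, since 1 gene was lower after median-of-ratios scaling and 1 after quantile normalization, and 4 were higher after the latter.

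Of the 10 other partners of TIMP3 in the table, 7 were tested, with 3 higher and 4 lower. All 7 passed, where 77.3% of all genes tested did, 44.4% as higher and 32.9% as lower. ADAM17, the sheddase that TIMP3 inhibits, fell from 17.6 ± 0.741 to 12.1 ± 0.290 FPKM, a log2 fold change of -0.54 (adjusted p = 9.2e-07 from limma), and ADAM19 fell with -0.87. ADAMTS1, a matrix protease, rose from 6.13 ± 0.255 to 30.5 ± 0.609 FPKM, a log2 fold change of 2.30 (adjusted p = 3.8e-11 from limma). KDR, the VEGF receptor to which TIMP3 binds, rose from 0.523 ± 0.093 to 1.52 ± 0.125 FPKM.

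The 14 basement membrane substrates moved in both directions, with 5 higher, 4 lower and 1 not past the test among the 10 tested. The shares over all genes tested were 44.4% higher and 32.9% lower. COL4A6, 1 of the 5, passed the filter only through 231-BR cells. The main chains of type IV collagen fell: COL4A2 from 48.0 ± 0.822 to 9.58 ± 0.105 FPKM and COL4A1 from 16.4 ± 0.235 to 4.45 ± 0.241 FPKM, log2 fold changes of -2.31 and -1.86. COL4A5, a chain of the minor type IV networks, rose from 0.783 ± 0.064 to 1.77 ± 0.231 FPKM. FN1, the fibronectin gene, rose with a log2 fold change of 1.36.

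Of 17 genes for the transport of MMP14 and for invadopodia, the protrusions at which it acts, 6 were higher, 8 lower and 3 not past the test, with a median log2 fold change of -0.10. The number of calls was near the background, as 77.3% of all genes tested passed, 44.4% as higher and 32.9% as lower. SH3PXD2B, the scaffold TKS4, rose from 1.07 ± 0.078 to 2.43 ± 0.050 FPKM and RAB8A, a GTPase of exocytosis, from 61.2 ± 0.225 to 120 ± 1.93 FPKM. EXOC4 of the exocyst and KIF5B, a kinesin, fell with -0.59 and -0.41. The list of 15 other secreted MMPs also holds MMP23B, a membrane-bound MMP that was below the filter. Of the 15, 12 are in the table and 5 were tested, with MMP1, MMP11 and MMP13 higher and MMP3 lower. MMP11 and MMP13 were named after their values were seen, and both were low. MMP11 had 0.42 ± 0.101 FPKM in 231-BR and 0.147 ± 0.045 FPKM in MDA-MB-231 cells, and MMP13 0.39 ± 0.036 and 0.117 ± 0.025 FPKM. MMP1, the interstitial collagenase, at 1962 ± 37.0 FPKM in 231-BR cells was above every member there, and at 42.98 ± 0.722 FPKM in MDA-MB-231 cells it was below MMP14.

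**Figure D5:**
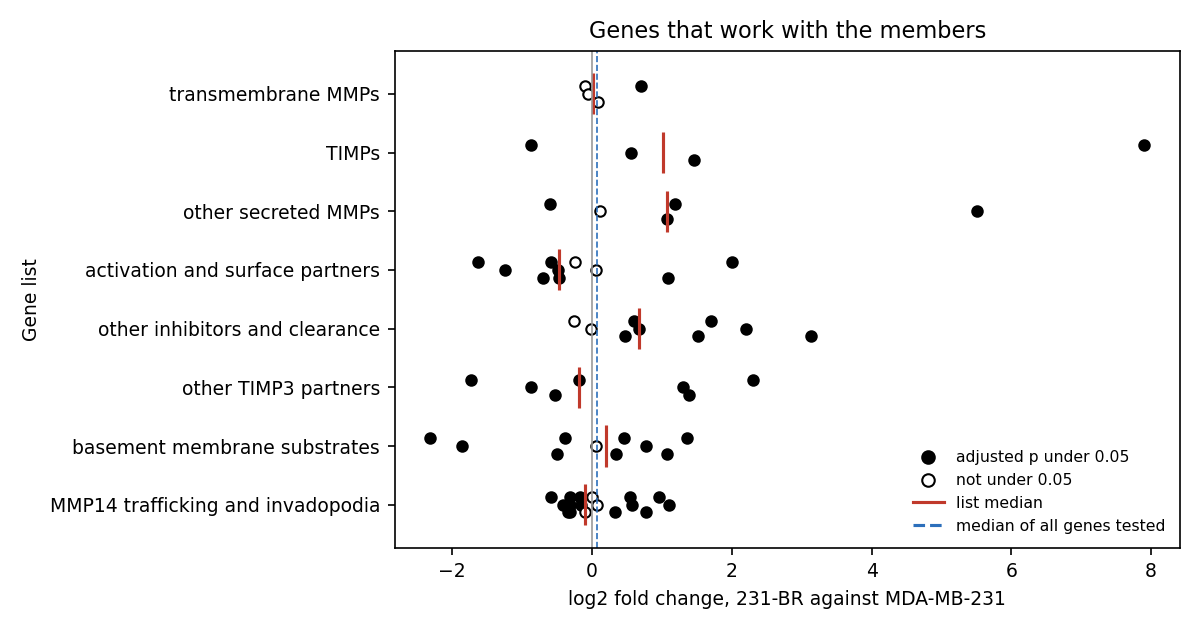
Log2 fold changes of the tested genes of each list (filled points past the adjusted p of 0.05, open points not), with the list median in red and the median of all genes tested (0.08) as a dashed line. TIMP3 at 7.90 and MMP1 at 5.51 lie far from the other genes, and the list of activation partners has a median of -0.48.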

How the data were processed

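Poly(A) RNA of 3 libraries of each line was sequenced on BGISEQ-500 as paired reads of 100 bases. The authors filtered reads with SOAPnuke, aligned them with HISAT2 2.0.4 and Bowtie2 2.2.5 on GRCh38.p12 (per the labels) and deposited FPKM per gene with 2 decimals. The program that computed FPKM is not given in the sources used here. The files per sample hold the values of the matrix.

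Values of log2(FPKM + 0.1), for genes with a mean of at least 0.1 FPKM, were fitted on the line in limma 3.58.1 (R 4.3.3) by lmFit and eBayes with trend, without a block. Read depth is unknown, as the files used here hold no counts. The study tested counts with DESeq2, which FPKM do not allow. Date-like symbols (25) were restored from gene identifiers. On simulated data 200 of 200 changed genes were recovered among 13127 fitted, and 1 of 12927 unchanged genes was called. The changed genes were drawn from those with a mean of at least 1 FPKM in MDA-MB-231 cells. All genes were given the same small spread, whereas low genes vary more in the data. Recovery was thus not tested below that level, where MMP2, MMP9, MMP16, MMP24, TIMP3 and TIMP4 lie in MDA-MB-231 cells. Neighbours came from RefSeq order (16791 identifiers placed). Figures were made with matplotlib 3.10.9.

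Members and lists were chosen with earlier results of these data known. Named in the text were all members, MMP17, MMP25, from each list up to 2 increases and 2 decreases that were largest among genes past the test with at least 1 FPKM in a line, and the 5 genes nearest to TIMP3, of which 1 is not reported here. Others were named after their values were seen. Alternatives were pseudocounts of 1 and 0.01, no filter, a filter at 1 FPKM, quantile normalization, scaling by the median of ratios, no trend in eBayes, a replicate block, each library left out, and the DEG criteria of the study.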

Additional observations from a re-analysis of the deposited data

How the results depend on the processing

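TIMP1, TIMP2, TIMP3, TIMP4 and MMP15 kept their direction and an adjusted p under 0.05 under all 14 alternatives each. Their log2 fold changes ran from -0.96 to -0.81, 0.48 to 0.60, 6.37 to 8.21, 0.85 to 1.58 and 0.33 to 0.74. MMP14 passed after median-of-ratios scaling (-0.14), and with a library left out ran from -0.076 to -0.035, where it passed without MDA-MB-231 replicate 1. After quantile normalization MMP9 (-0.77) and MMP16 (-0.45) passed and MMP24 turned (-0.27). The number of members lower in 231-BR cells was 2 after median-of-ratios scaling, 3 after quantile normalization and 1 to 2 with a library left out. Under the DEG criteria, with 1 FPKM asked of both lines 0 members were higher and 0 lower, and with it asked of either line 2 were higher and 0 lower. With a filter at 1 FPKM, 1 other secreted MMP and 4 other inhibitors were higher, where fewer of their genes were tested. After quantile normalization 2 other secreted MMPs were lower, 4 other inhibitors were higher and 1 lower, and 3 basement membrane substrates were higher, and after median-of-ratios scaling 1 other inhibitor was lower. The log2 difference of the summed TIMPs was 0.31, and 0.22 after median-of-ratios scaling and 0.37 after quantile normalization. That of the gelatinases was -0.74, -1.46 after quantile normalization and -0.43 without MDA-MB-231 replicate 1. That of the transmembrane MMPs was -0.05, and -0.13 after median-of-ratios scaling. That of the ratio of TIMPs to member MMPs was 0.35, and 0.39 after quantile normalization. The cause of these shifts was not tested. Of all calls 57.4% were higher, against 50.3% after median-of-ratios and 45.6% after quantile normalization, and these moved the median change over all genes tested (log2) from 0.08 to -0.0021 and -0.06. The replicate numbers showed no clear pairing of the libraries: deviations of same-numbered libraries from their line means correlated at 0.09, -0.04 and -0.11. Only the libraries numbered 1 correlated best with each other, while 231-BR replicate 2 did so with MDA-MB-231 replicate 3 (0.18). Deviations within so few libraries depend on one another and cannot exclude that same-numbered libraries were handled together. The replicate block gave 6015 higher and 4487 lower genes, against 5973 and 4433 without it, and changed no call among the members (MMP14 adjusted p = 0.051). MMP9 could not be fitted without MDA-MB-231 replicate 1, where its mean fell under the filter, and MMP9, MMP16 and MMP24 could not with the filter at 1 FPKM. The unknown depth limits genes below about 0.3 FPKM.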
